A study of Mus musculus with 6 samples.

Results

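The 9 genes Ebf1, Ebf2, Ebf3, Sim1, Otp, Gbx2, Lhx9, Lef1 and Emx2 encode DNA-binding proteins that divide the developing brain into regions. They were followed in single-nucleus RNA sequencing of mouse forebrain, as 9 of the 32285 genes counted. They were selected by gene symbol because a large set of neuron nuclei rich in Ebf2 and Ebf3 had been left without a name in an earlier look at the same counts. Their neuronal and astrocyte levels are therefore a description, and no test was made on them. Nuclei came from flash-frozen forebrain of 3 WT and 3 Npc1-/- littermates, untreated, at postnatal day 16. Npc1-/- mice carried the Npc1 nih allele on both chromosomes, so that the cholesterol transporter NPC1 was missing from every cell, and were hybrids of the BALB/cJ and C57BL6/J strains. The 6 libraries were joined in 1 matrix, in which each barcode ends in a suffix from 1 to 6. The sources used here hold no key from suffix to mouse, so the genotypes were not compared, and libraries are named by suffix only.

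Ebf1, Ebf2 and Ebf3 belong to the Collier/Olf/EBF family, helix-loop-helix proteins with a zinc-containing DNA-binding domain that act in neuronal differentiation and also in blood, fat and vessel-wall cells. Sim1 is a helix-loop-helix PAS protein and Otp a homeodomain protein, and both are needed for the neuroendocrine neurons of the hypothalamus. Gbx2, a homeodomain protein, and Lhx9, a LIM-homeodomain protein, pattern the thalamus. Lef1 is a nuclear effector of Wnt signalling, which is active in the postnatal thalamus and in the endothelium of brain vessels. Emx2, a homeodomain protein of the dorsal telencephalon, patterns cortex and hippocampus before birth.

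After 11 of 75878 barcodes with at least 10% mitochondrial counts had been removed, 75867 nuclei remained, 8215 to 16109 per library, with 51342120 to 107561475 unique molecular identifiers (UMIs, counts of captured transcripts) and a median of 4471 to 5439 UMIs per nucleus. Of the barcodes, 1264 (1.67%) shared their 16 bases with a barcode of another library. The tissue was checked by its markers. The diencephalic factor Tcf7l2 had 65551 UMIs, the hypothalamic peptides Oxt and Avp had 1677 and 2019, and each of 6 hindbrain Hox genes had 0 to 14. The cerebellar genes Pcp2 and Gabra6 were at 120 and 159 UMIs.

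On the GRCm38 genome with GENCODE vM21, Ebf1 (ENSMUSG00000057098) lies on the plus strand at chr11:44617317-45008091, Ebf2 (ENSMUSG00000022053) on the plus strand at chr14:67233292-67430918, and Ebf3 (ENSMUSG00000010476) on the minus strand at chr7:137193673-137314445. Sim1 (ENSMUSG00000019913) is at chr10:50894754-50989152 on the plus strand and Otp (ENSMUSG00000021685) at chr13:94875602-94885130 on the plus strand. Gbx2 (ENSMUSG00000034486) and Lhx9 (ENSMUSG00000019230) are both on the minus strand of chromosome 1, at chr1:89927956-89931179 and chr1:138825186-138848577. Lef1 (ENSMUSG00000027985) is on the plus strand at chr3:131110471-131224356, and Emx2 (ENSMUSG00000043969) on the plus strand at chr19:59458372-59465357. The antisense gene Emx2os overlaps the first bases of Emx2, from 59458372 to 59458635, and whether counting used strand is not given by the sources at hand, so reads from that overlap cannot be assigned to either gene.

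The RefSeq promoter windows on GRCm38.p6 held 8 of the 9 genes, all but Ebf2, in 12 windows of 250 bases before an annotated start. The windows of Ebf1 and Ebf3 are shown because they differ in CG content. They lie at unlike positions relative to the annotated genes, and a link of CG content to the levels of these paralogs was not tested. The Ebf3 window (chr7:137314446-137314695, minus strand, ending at the start of the annotated gene) held 43 CG dinucleotides. Of 2 Ebf1 windows, the printed one (chr11:44619978-44620227, plus strand, inside the annotated gene, with no exon bases) held 14, and the other, which lies in exon sequence, held 9. The median over all 32851 windows was 6 CG dinucleotides. Both are written 5′ to 3′ on the strand of the gene, with the CG dinucleotides in capitals.
Ebf1: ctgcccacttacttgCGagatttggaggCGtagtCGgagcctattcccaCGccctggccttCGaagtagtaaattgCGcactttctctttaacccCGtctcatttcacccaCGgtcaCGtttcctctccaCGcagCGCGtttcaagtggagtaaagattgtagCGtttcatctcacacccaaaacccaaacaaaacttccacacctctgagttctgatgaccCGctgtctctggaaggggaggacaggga
Ebf3: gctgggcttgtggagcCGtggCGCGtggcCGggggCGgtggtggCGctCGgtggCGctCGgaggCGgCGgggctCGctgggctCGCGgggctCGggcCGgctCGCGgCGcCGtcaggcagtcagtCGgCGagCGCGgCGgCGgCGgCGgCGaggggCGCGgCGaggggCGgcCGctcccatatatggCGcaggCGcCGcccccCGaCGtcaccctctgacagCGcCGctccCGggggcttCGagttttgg
On both strands of the 12 windows, no match was found for an EBF site (TCCC and GGGA with any 2 bases between, in 0.779% of all windows), a TCF/LEF site (CTTTGAT, in 3.21%) or a homeodomain site (TAATTA, in 4.84%), which says only that these letters are not in these windows.

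Over all nuclei, the totals ranged from 139 UMIs of Otp to 72529 of Ebf1. Ebf1 was counted in 14582 nuclei, at 101, 150 and 171 CPM (its counts per 1000000 UMIs) in the lowest library, at the median and in the highest library. Lef1 had 29825 UMIs in 10322 nuclei, at 43.2, 59.4 and 70.9 CPM. Both were present in every library within a range of less than 2-fold.
Ebf3 had 3081 UMIs in 1472 nuclei and ranged from 4.93 to 8.03 CPM with a median of 6.06. Ebf2 had 2875 UMIs in 1075 nuclei and ranged from 4.91 to 7.55 CPM with a median of 5.53. These counts were concentrated in few nuclei. For Ebf2, 173 nuclei with at least 5 UMIs held 52.7% of the UMIs, and for Ebf3, 151 such nuclei held 35.8%.
Sim1 had 1423 UMIs in 633 nuclei, of which 74 nuclei with at least 5 UMIs held 40.9%. By contrast Lhx9 (1896 UMIs in 1550 nuclei) and Emx2 (1720 UMIs in 1595 nuclei) were spread at about 1 UMI per nucleus. Otp (139 UMIs in 131 nuclei) and Gbx2 (162 UMIs in 157 nuclei) never exceeded 2 UMIs in a nucleus and were near the limit of what the depth can show.

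Nuclei were sorted into gates by UMIs of marker genes, with none of the 9 genes among the markers. In the gates of single cell classes were 25103 neuron nuclei (median 8750 UMIs), 5625 astrocyte (3844), 4991 oligodendrocyte-lineage (4130), 3218 microglia (2712), 2602 endothelial (3480.5), 1174 mural (3651.5), 1377 fibroblast (3963), 667 ependymal (4358) and 497 choroid plexus nuclei (4401), and 30613 nuclei passed no gate. Within the neuron gate, pallial excitatory nuclei had Slc17a7 and other cortical markers without Slc17a6 (8575 nuclei, median 9817 UMIs). Thalamic nuclei had at least 2 UMIs of Tcf7l2 together with Synpo2, Prkcd or Ntng1 (1036 nuclei, 11315), and the other subcortical Slc17a6 nuclei had the vesicular glutamate transporter Slc17a6 with at most 1 UMI of Tcf7l2 and no Slc17a7 (661 nuclei, 7613). For this last gate 1 UMI of Slc17a6 was enough, so it may be mixed, and its stricter form held 207 nuclei. The thresholds were set after the data had been seen. A gene was called higher or lower between 2 gates if it differed at least 2-fold over all nuclei and in the same direction in all 6 libraries, and if both gates together held at least 20 UMIs. Intervals are at 95% and cover counting error only, not variation between mice. Those of levels and ratios treat each UMI as independent, so they also leave out variation between nuclei.

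**Figure D1:**
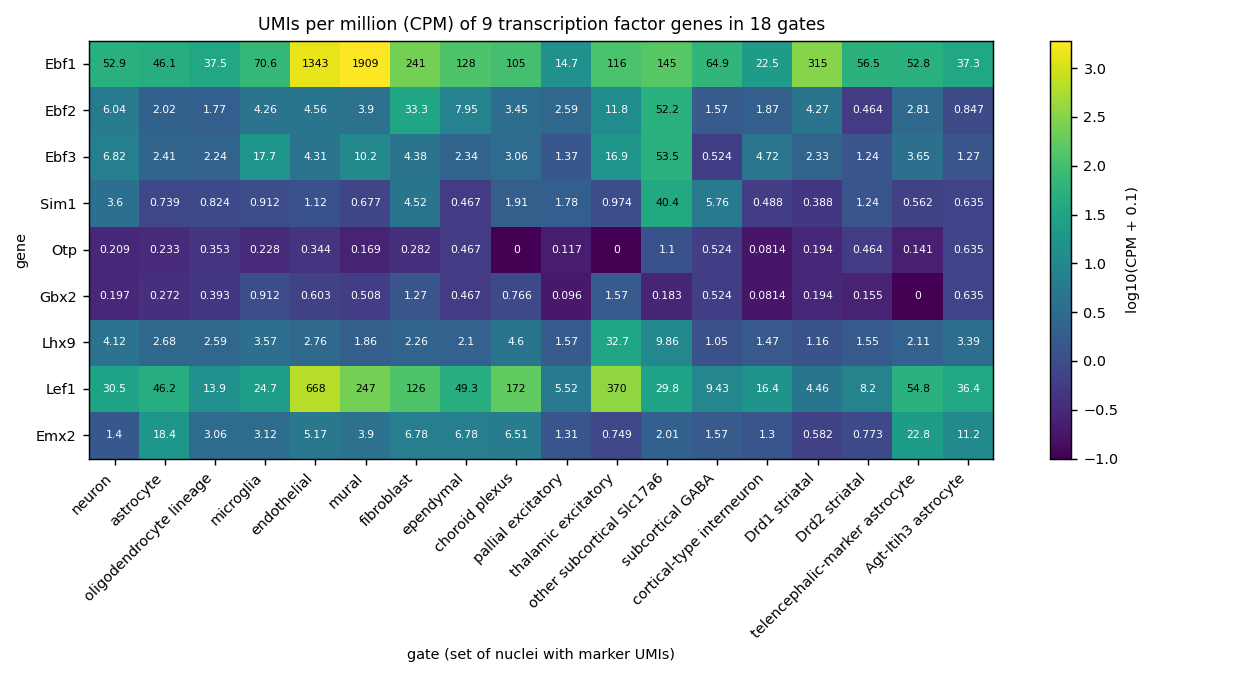
Level of each of the 9 genes (rows) in 18 gates (columns), printed as CPM and coloured by log10(CPM + 0.1), all libraries summed. The highest cells are Ebf1 in mural (1909 CPM) and endothelial nuclei (1343 CPM), followed by Lef1 in endothelial (667.7 CPM) and thalamic nuclei (369.9 CPM), while Ebf2, Ebf3 and Sim1 peak in the other subcortical Slc17a6 nuclei.

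Of the 18 gates, the other subcortical Slc17a6 nuclei had the highest levels of Ebf3 and Sim1 and, together with fibroblasts, of Ebf2. Ebf2 was at 22.1, 51.5 and 85.7 CPM there (lowest library, median and highest library), against 0.934, 2.56 and 6.08 CPM in pallial excitatory nuclei. Every library of the first gate was above every library of the second, and over all nuclei 286 UMIs stood against 243 in a gate of far more nuclei, a 20.1-fold difference (log2 4.33, interval 4.08 to 4.58).
For Ebf3 the corresponding levels were 25.0, 46.2 and 98.7 CPM against 0.567, 0.918 and 3.54 CPM. The libraries again did not overlap, and the ratio was 39.2-fold (log2 5.29, with 293 UMIs against 128).
Sim1 stood at 21.98, 42.8 and 52.5 CPM against 0.262, 2.01 and 3.13 CPM, without overlap, a 22.7-fold difference (log2 4.50, with 221 UMIs against 167). Of the 9 genes, 6 were called higher than in pallial nuclei (Ebf1, Ebf2, Ebf3, Sim1, Lhx9 and Lef1) and 0 lower, where 4.96% of all genes tested were called higher and 4.14% lower. Since the genes were picked for this pattern, nothing is read from that count. With stricter gates 5 were called, without Lef1.

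The thalamic gate carried another combination. Lef1 was at 314, 376 and 420 CPM in thalamic nuclei and at 1.64, 4.92 and 10.8 CPM in pallial nuclei. All 6 thalamic values lay far above all pallial ones, and the difference was 67.1-fold (log2 6.07, interval 5.94 to 6.20, 4936 UMIs against 517). A Lef1 UMI was found in 73.4% of thalamic nuclei, and in 44.6% after each nucleus had been thinned to 2000 UMIs, against 4.68% and 1.11% of pallial nuclei.
Lhx9 stood at 21.9, 34.8 and 40.0 CPM against 0.998, 1.28 and 2.54 CPM, again without overlap, a 20.9-fold difference (log2 4.38, 437 UMIs against 147). Its UMIs were seen in 29.0% of thalamic and 1.52% of pallial nuclei, or 6.66% and 0.397% after thinning. Gbx2 had 21 UMIs in thalamic and 9 in pallial nuclei (log2 4.03), at 0.541, 1.65 and 2.61 CPM against 0, 0.0882 and 0.308 CPM. With 1 library left out, the log2 ratio of Gbx2 ran from 3.66 to 4.65, the latter without library 4. Although these libraries did not overlap either, a Gbx2 UMI was found in only 1.83% of thalamic nuclei, and in 0.097% after thinning.
Ebf3 (12.3-fold, log2 3.63), Ebf1 (7.93-fold, log2 2.99) and Ebf2 (4.57-fold, log2 2.19) were higher in thalamic than in pallial nuclei as well, with Ebf2 per library from 2.92 to 21.4 CPM and thus partly within the pallial range of 0.934 to 6.08. Sim1 was not called (log2 ratio -0.87), and neither was Emx2 (-0.81). Otp had 0 UMIs in thalamic nuclei, where a limit of 3 counts gives up to 0.225 CPM, and 11 in pallial nuclei. Of the 9 genes, 6 were called higher and 0 lower, where 6.23% of all genes tested were called higher and 6.01% lower, and both comparisons share the pallial nuclei. The call of Ebf2 was lost with stricter gates, and those of Ebf2 and Ebf3 were lost when whole clusters were compared.

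**Figure D2:**
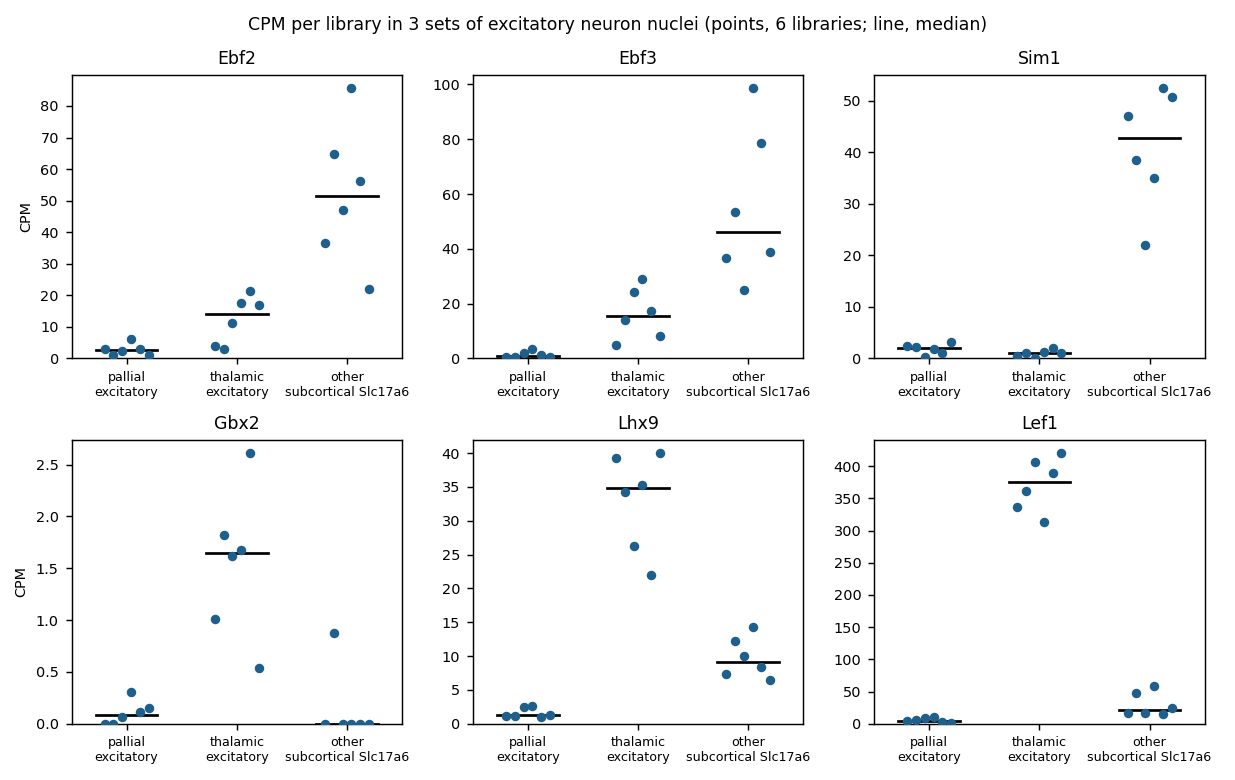
CPM of Ebf2, Ebf3, Sim1, Gbx2, Lhx9 and Lef1 (panels) in pallial excitatory, thalamic excitatory and other subcortical Slc17a6 nuclei, with a point for each of the 6 libraries and a line at their median. Sim1 is above 20 CPM only in the other subcortical Slc17a6 nuclei of every library, and Lef1 and Lhx9 are highest in the thalamic nuclei.

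Set directly against each other, the 2 subcortical gates divided the genes. Sim1 was 41.4-fold higher outside the thalamic gate (log2 5.37, 221 UMIs against 13), Ebf2 4.41-fold (log2 2.14) and Ebf3 3.17-fold (log2 1.67). Ebf2 and Ebf3 were higher in 6 of 6 libraries, but by unlike amounts. Their log2 ratios per library ran from 0.40 to 4.47 and from 0.04 to 2.86. Lef1 (log2 -3.64) and Lhx9 (-1.73) were lower outside the thalamic gate, as was Gbx2 (-3.11, interval -8.48 to -0.47), which rested on 1 UMI against 21. Ebf1 was not called, at 145 CPM against 116 CPM (log2 0.32). Thus 3 of the 9 genes were called higher and 3 lower, where 3.68% of all genes tested were called higher and 2.81% lower.

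The order of gates differed for each gene. Ebf2 ran from the other subcortical Slc17a6 nuclei (52.2 CPM) over fibroblasts (33.3 CPM) to thalamic nuclei (11.8 CPM). The counting intervals of these 3 gates did not meet, but below them each gate overlapped the next, down to 0.464 CPM in Drd2 striatal nuclei. Per library, fibroblasts spanned 16.5 to 43.8 CPM, within reach of the 22.1 to 85.7 CPM of the other subcortical Slc17a6 nuclei, so that the first positions do not differ beyond the spread between libraries.
For Ebf3 the other subcortical Slc17a6 nuclei (53.5 CPM) were followed by microglia (17.7 CPM) and thalamic nuclei (16.9 CPM), whose intervals overlapped. Sim1 was at 40.4 CPM in the other subcortical Slc17a6 nuclei and next highest in subcortical GABA nuclei (5.76 CPM, 11 UMIs), fibroblasts (4.52 CPM) and the neuron gate as a whole (3.60 CPM). Lhx9 was highest in thalamic nuclei (32.7 CPM) and then in the other subcortical Slc17a6 nuclei (9.86 CPM), and all further gates were between 1.05 and 4.60 CPM, overlapping in series.
For Gbx2 and Otp every gate overlapped its neighbour in the order. Otp was highest in the other subcortical Slc17a6 nuclei at 1.10 CPM, from 6 UMIs, and Gbx2 in thalamic nuclei at 1.57 CPM, followed by fibroblasts at 1.27 CPM.

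Droplets also hold free RNA, which gives UMIs in nuclei that do not express a gene. In astrocytes, with a median of 3844 UMIs, 0.587% of nuclei had an Ebf2 UMI and 0.320% a Sim1 UMI (0.269% and 0.0769% after thinning). In the other subcortical Slc17a6 nuclei these shares were 8.32% and 10.7% (4.43% and 5.81% after thinning), and 14.4% had an Ebf3 UMI (7.19% after thinning) against 0.842% of oligodendrocyte-lineage nuclei (0.459%). For Otp, 0.908% of the other subcortical Slc17a6 nuclei had a UMI (0.306% after thinning), in 6 nuclei. The interval of 0.334% to 1.97% met the 0.0825% to 0.342% of the oligodendrocyte lineage. It lay above the 0.0392% to 0.232% of astrocytes. After thinning, the interval reached down to 0.0371% and met that of astrocytes, which reached up to 0.139%. The background chosen thus decides the reading, and whether this level is expression was not tested.

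Other genes of the same pathways were called in part. The EBF cofactors Zfp423 and Zfp521, zinc finger proteins that bind EBF proteins, were both higher in thalamic than in pallial nuclei (2 of 2, log2 3.42 and 2.33), and both were higher in the other subcortical Slc17a6 nuclei (2 of 2, median log2 2.32). The remaining EBF paralog, Ebf4, was not called in either (log2 0.15 and 0.32). Of the genes used to mark Cajal-Retzius cells, the early-born neurons of the cortical surface, 6 of 7 were higher in the other subcortical Slc17a6 nuclei, with a median log2 ratio of 2.32 where all genes had 0.26. These were Lhx1 (4.45), Lhx5 (4.40), Trp73 (3.40), Ndnf (2.32), Calb2 (1.99) and Reln (1.29), several of which are also used by neurons of the diencephalon, and 2 of 7 were higher in thalamic nuclei (Trp73 2.95 and Calb2 2.18). Among partners and targets of Sim1 and Otp in the hypothalamus, 0 of 7 were higher in the other subcortical Slc17a6 nuclei (Oxt, log2 1.23, and Avp, 1.27, were not called), and in thalamic nuclei 0 were higher and 2 lower (Arnt2 -1.33, the dimer partner of Sim1, and Mc4r -1.21).
Thalamic factors outside the gate were higher in thalamic nuclei in 4 of 4 cases (Zic4 4.12, Zic1 3.24, Foxp2 1.62 and Rora 1.16, median 2.43 where all genes had 0.09), and 2 of 4 were higher in the other subcortical Slc17a6 nuclei. Of 6 Wnt effectors and targets, Nkd1 (1.94) and Lgr5 (1.90) were higher in thalamic nuclei and 0 were called in the other subcortical Slc17a6 nuclei. Pallial patterning factors were called in 0 of 2 cases in each comparison. LIM-homeodomain partners were higher in 0 of 5 cases in thalamic nuclei and in 2 of 5 in the other subcortical Slc17a6 nuclei, which were the Lhx1 and Lhx5 already named. Against the thalamic gate, the other subcortical Slc17a6 nuclei had 3 of 7 Cajal-Retzius genes, 2 of 4 LIM-homeodomain partners, 1 of 4 genes of the Sim1 and Otp programme and 1 of 2 pallial patterning factors higher, and 3 of 4 thalamic factors, 2 of 6 Wnt genes and 1 of 2 EBF cofactors lower.

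When all nuclei were clustered without the 9 genes, 1 of 35 clusters held about as many Ebf2 and Ebf3 UMIs as all others together. Cluster 3 (5414 nuclei, median 7311.5 UMIs) was led by Gm47757, Uncx, Gm48535, D130079A08Rik and Lhx5 beside Sim1. Of the other subcortical Slc17a6 nuclei, 58.1% lay in it and the rest in other clusters. It held 48.2% of all Ebf2 UMIs (30.5 CPM), 52.1% of Ebf3 (35.4 CPM), 60.0% of Sim1 (18.8 CPM) and 27.3% of Otp (0.837 CPM, 38 UMIs). It also held 107 of the 173 nuclei with at least 5 Ebf2 UMIs (61.8%), 112 of 151 for Ebf3 (74.2%) and 61 of 74 for Sim1 (82.4%). By level it was the first cluster for Ebf3 but not for Ebf2, which was higher in the fibroblast-rich cluster 17 (38.9 CPM), whereas among gates fibroblasts came after the other subcortical Slc17a6 nuclei.
Cluster 21 (1314 nuclei), rich in thalamic markers, held Lef1 at 453 CPM, Lhx9 at 31.5 CPM and 24 UMIs of Gbx2. Genes with the most similar pattern across the 35 clusters, by the correlation of log2(CPM + 1), were Col6a3 for Ebf2 (Pearson's r 0.74), Ecel1 for both Ebf3 (0.75) and Sim1 (0.73), Plekhd1 for Lhx9 (0.81), Ccdc141 for Lef1 (0.88), Dach1 for Ebf1 (0.88) and Gldc for Emx2 (0.92). For Otp (Pes1, 0.68) and Gbx2 (Rgs16, 0.79) the levels rest on few UMIs. The next 3 genes were Npffr1 (0.67), Adamts12 (0.63) and Txnrd3 (0.62) for Ebf2, Rassf4 (0.74), Cdh23 (0.72) and Uchl5 (0.71) for Ebf3, and Zim1 (0.72), Gm45194 (0.69) and Esyt3 (0.64) for Sim1. All clusters come from the same 6 libraries and differ in depth, and these values describe likeness only.

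Cluster 3 was split again, also without the 9 genes, into 24 sub-clusters, and Ebf2 and Ebf3 proved to be unevenly spread. Sub-cluster 15 had 72 nuclei, 5 to 23 from each library, with a median of 5339 UMIs. Ebf2 was at 1096, 1158 and 1377 CPM in it (lowest library, median and highest library), and Ebf3 at 616, 743 and 846 CPM. With all libraries summed it was the richest of the 24 sub-clusters in both genes, and it held 17.6% of all Ebf2 UMIs and 9.83% of all Ebf3 UMIs. Of the 72 nuclei, 88.9% had an Ebf2 UMI, 58 (80.6%) had both, 42 had Ebf1 too, 51.4% had the glutamate transporter Slc17a6, and Sim1 was at 0 UMIs. Its leading genes beside Ebf2 and Ebf3 were Corin, Tenm3, Sema3a and Nrp2, the last being a receptor of semaphorin guidance cues, and none of the marker lists named it.
Sub-cluster 9 (225 nuclei) was led by Lmx1a, Lmx1b, Ttc6 and Cdh23 with Ebf3 and Ebf2, at 110 CPM of Ebf2, 169 CPM of Ebf3 and 337 CPM of Ebf1, and 45 nuclei had both Ebf2 and Ebf3. Lmx1a and Lmx1b are LIM-homeodomain factors of the midbrain floor and posterior hypothalamus. Sub-cluster 11 (202 nuclei), with Tfap2d in the lead, had 565 CPM of Ebf1, 76.4 CPM of Ebf2, 83.4 CPM of Ebf3 and 69.5 CPM of Lef1.

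**Figure D3:**
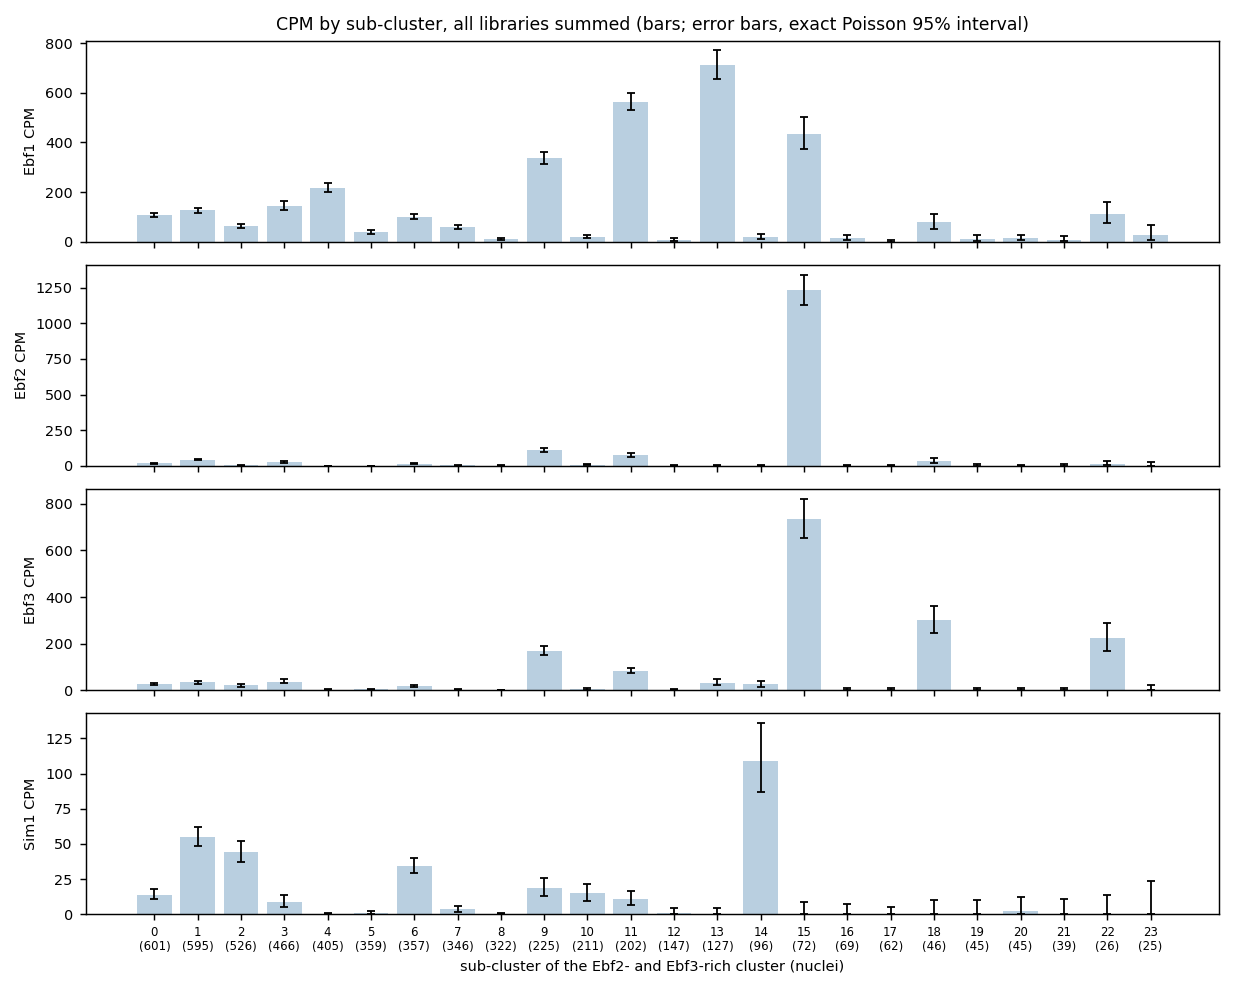
CPM of Ebf1, Ebf2, Ebf3 and Sim1 (panels, top to bottom) in the 24 sub-clusters of cluster 3, with bars for all libraries summed, error bars for exact Poisson 95% intervals and the number of nuclei under each. Ebf2 and Ebf3 peak in sub-cluster 15 (1229 and 735 CPM), Ebf1 in sub-cluster 13 (713 CPM), and Sim1 in sub-cluster 14 (109 CPM) where Ebf2 is at 0.

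Ebf1 was far more widely detected than its paralogs in the habenula-like sub-cluster 13 (127 nuclei), in which 6 of 6 habenular markers were raised and Tac2, Syt9 and Ano1 were among the leading genes. Ebf1 was at 552, 714 and 908 CPM in its 6 libraries, seen in 97 of the 127 nuclei, while an Ebf2 UMI was seen in 1 nucleus and Ebf3 in 8 nuclei (27 UMIs, 31.4 CPM). Lef1 (154 CPM) and Lhx9 (119 CPM) were also counted there. The dopaminergic-like sub-cluster 22 (26 nuclei, led by Ddc and Slc18a2) held 60 UMIs of Ebf3 (223 CPM), and in the cholinergic-like sub-cluster 17 (62 nuclei, led by Chat and Slc5a7) Ebf1 and Ebf2 were at 0 UMIs. Sub-cluster 18 (46 nuclei) held 112 UMIs of Ebf3 at 300 CPM, but 29 of its nuclei came from library 3 and its level per library ran from 0 to 1475 CPM. It had both Cajal-Retzius (5 of 7) and mitral or tufted cell markers (4 of 4) raised, and it was left unnamed.

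Sim1 was spread over other sub-clusters. Sub-cluster 14 (96 nuclei) had Sim1 at 63.7, 91.5 and 204 CPM, in 37 nuclei (38.5%), with 0 UMIs of Ebf2. Of the 24 sub-clusters, the highest numbers of Sim1 UMIs were in sub-cluster 1 (595 nuclei, 281 UMIs, 19.7% of all Sim1, 54.9 CPM, where Ebf2 was at 43.0 CPM), sub-cluster 6 (357 nuclei, 163 UMIs, 0 to 76.5 CPM per library, with 127 of its nuclei from library 4) and sub-cluster 2 (526 nuclei, 134 UMIs, 44.2 CPM). Sub-cluster 2, led by Calcr, Dlk1 and Ecel1 with 8 of 17 hypothalamic markers raised, held 17 of the 139 Otp UMIs (12.2%, at 5.60 CPM), and sub-cluster 1 held 10.

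Pairs of the genes were then counted within single nuclei. In the neuron gate 203 nuclei had both Ebf2 and Ebf3, where the product of the margins within each library gives 12.2, a ratio of 16.7 (interval 14.5 to 19.1). They were 41.9% of the nuclei with Ebf2 and 32.8% of those with Ebf3. Ebf1 was found with Ebf2 in 213 nuclei (ratio 2.94) and with Ebf3 in 280 (3.03).
Sim1 and Otp shared 11 nuclei against 0.652 (ratio 16.9, interval 8.42 to 30.2), which were 21.6% of the nuclei with Otp. Ebf3 and Sim1 shared 70 against 8.05 (8.69), and Ebf2 and Sim1 23 against 6.39 (3.60). Lhx9 and Lef1 shared 299 (4.18), Gbx2 and Lef1 17 (3.87), Gbx2 and Lhx9 10 (6.56), and Sim1 and Lef1 20 against 28.6 (0.700).
A ratio over a mixed gate also counts which kinds of neuron hold the genes at all, so it was repeated within narrower gates. In the other subcortical Slc17a6 nuclei, 37 of the 55 nuclei with Ebf2 also had Ebf3 (67.3%, ratio 4.45), 5 of the 6 with Otp had Sim1, Ebf3 and Sim1 shared 21 (1.96), and Ebf2 and Sim1 shared 5 against 6.09 (0.821). In the thalamic gate Ebf2 and Ebf3 shared 31 against 3.62 (8.56), whereas Ebf2 and Lef1 shared 14 against 33.8 (0.415, interval 0.227 to 0.696) and Ebf3 and Lef1 25 against 57.0 (0.438, interval 0.284 to 0.647), and Lhx9 and Lef1 207 against 220 (0.940). The Ebf2 and Ebf3 pairs with Lef1 were below the product in all 6 libraries, but in the neuron gate as a whole they were above it (63 nuclei, ratio 1.45, and 93 nuclei, ratio 1.68). Sim1 and Lef1 shared 0 of the other subcortical Slc17a6 nuclei, where the product gives 6.83 (interval of the ratio up to 0.540). Deep nuclei hold more of every gene, and the part of depth in these ratios was not tested.

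**Figure D4:**
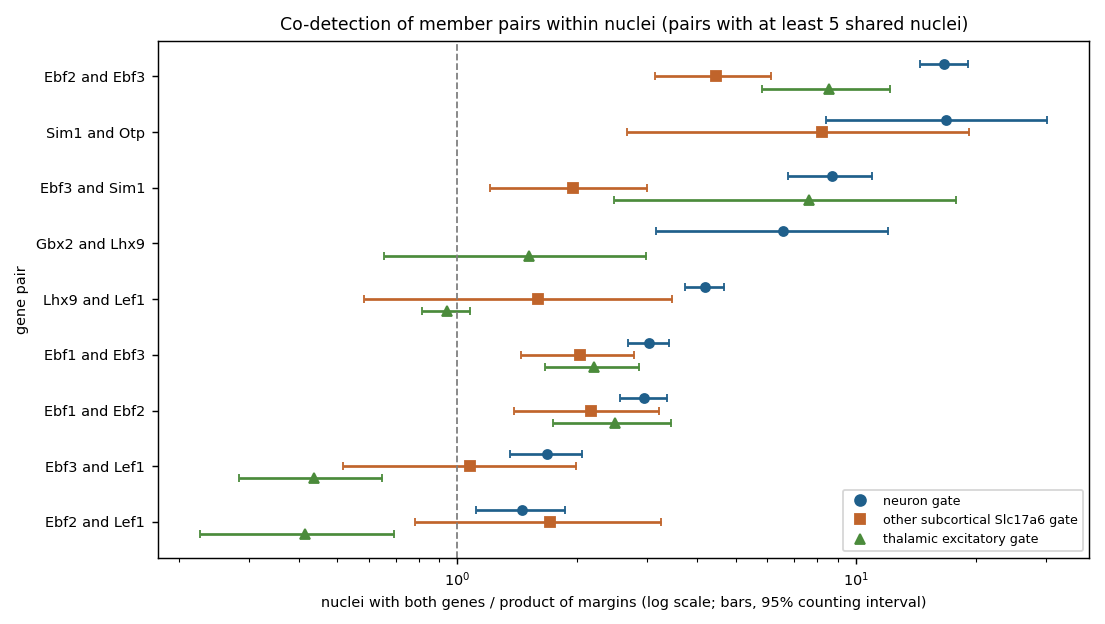
Number of nuclei with both genes of a pair, divided by the product of the margins (horizontal, log scale, with 95% counting intervals), for 9 pairs, each drawn where at least 5 nuclei were shared, in the neuron, other subcortical Slc17a6 and thalamic gates. Ebf2 with Ebf3 is above 1 in all 3 gates (16.7, 4.45 and 8.56), and Ebf2 and Ebf3 with Lef1 are below 1 in the thalamic gate (0.415 and 0.438).

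Most of the 9 genes had few UMIs in subcortical GABA neurons and cortical-type interneurons, with Ebf1 the most counted. In subcortical GABA nuclei (233 nuclei, marked by Baiap3) Ebf1 was at 24.9, 40.0 and 190 CPM, and in cortical-type interneurons (1296 nuclei) at 7.55, 23.4 and 32.7 CPM. The libraries overlapped, the ratio was above 1 in 4 of 6 (log2 1.53 over all nuclei), and it fell to log2 0.92 without library 2, the highest of them. None of the 9 genes was called (0 higher and 0 lower, where 1.57% and 2.75% of all genes tested were). Ebf3 had 1 UMI against 58 there, and Sim1 11 against 6. The EBF cofactors were higher in 2 of 2 cases (median log2 1.44) and Isl1 was higher (1.55), while of 4 Cajal-Retzius genes 1 was higher and 2 were lower, and 1 of 6 Wnt genes was lower.
In the striatum Ebf1 set the direct-pathway neurons, marked by Drd1 or Tac1, apart from the indirect-pathway neurons, marked by Drd2, Adora2a or Penk. It was at 256, 300.2 and 437 CPM in 534 Drd1 nuclei and at 25.8, 60.1 and 82.5 CPM in 710 Drd2 nuclei. No library overlapped, and the difference was 5.59-fold (log2 2.48, interval 2.32 to 2.65, 1626 UMIs against 365). A UMI was present in 60.9% of Drd1 and 14.6% of Drd2 nuclei, or 37.5% and 6.34% after thinning, at median depths of 8705 and 7929.5 UMIs. It was the 1 of 9 genes called higher, with 0 lower (0.424% and 0.545% of all genes tested). Ebf2 had 22 UMIs against 3. Zfp521 (log2 1.66), Foxp2 (1.75) and the LIM-homeodomain factor Isl1 (3.04, 118 UMIs against 18) were higher in Drd1 nuclei, too.

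Of the 18 gates, Ebf1 was highest in mural and then in endothelial nuclei, and Lef1 was highest in endothelial nuclei. These gates held 132 to 619 endothelial and 68 to 268 mural nuclei per library. Ebf1 was at 1761, 1869 and 2215 CPM in mural nuclei, the pericytes and smooth muscle cells around vessels, and at 47.5, 53.5 and 58.7 CPM in neurons. The difference was 36.1-fold (log2 5.17). In endothelial nuclei it was at 1161, 1381 and 1596 CPM (25.4-fold over neurons, log2 4.67). Mural nuclei were above endothelial nuclei in every library, and 85.0% (interval 82.8 to 87.0) and 89.0% of nuclei, respectively, had an Ebf1 UMI. In the neuron gate, with more UMIs per nucleus, 3683 of 25103 nuclei had one, and among pallial nuclei 8.15% did.
Between these gates Lef1 had the opposite order, with 608, 669 and 869 CPM in endothelial nuclei and 183, 250.3 and 403 CPM in mural nuclei, without overlap, against 23.7, 31.3 and 35.4 CPM in neurons (21.9-fold and 8.12-fold, log2 4.45 and 3.02). A UMI of Lef1 was seen in 79.5% of endothelial and 39.1% of mural nuclei. In the order of gates, thalamic nuclei (369.9 CPM) came between endothelial and mural nuclei, and choroid plexus nuclei (172 CPM) and fibroblasts (126 CPM) followed.
The clusters divided along the same line. Cluster 25 (678 nuclei, with 7 of 7 mural markers raised) had 1950 CPM of Ebf1 with 57.8 CPM of Lef1, and cluster 8 (3329 nuclei, with 7 of 7 endothelial markers raised) had 1128 CPM of Ebf1 with 575 CPM of Lef1. Cluster 19 (1467 nuclei) had all markers of both lists raised and both genes (Ebf1 1705 and Lef1 509 CPM), and the summed endothelial markers were at 4906 CPM in it, against 573 CPM in cluster 25 and 5139 CPM in cluster 8. The part of these markers in the Lef1 level of cluster 19 was not tested. Cluster 25 held 49.5% of the mural gate, and its 57.8 CPM of Lef1 stood against 30.5 CPM in the neuron gate, under the 2-fold limit, so the Lef1 level and call of the mural gate rest on its nuclei outside that cluster.
Of the 9 genes, Ebf1, Lef1 and Emx2 were called higher and Sim1 lower in endothelial nuclei than in neurons (3 and 1, where 21.0% and 14.3% of all genes tested were called), and Ebf1 and Lef1 higher and Sim1 lower in the mural gate (2 and 1, where 16.8% and 14.2% were), with the limit just given for Lef1. Wnt effectors and targets were higher in 5 of 6 cases in endothelial nuclei (Nkd1 4.75, Tcf7 4.11, Tcf7l1 3.89, Ctnnb1 2.02 and Axin2 1.87, median log2 2.96 where all genes had 0.36), and Lgr5 was not called (-0.94). In mural nuclei 5 of 6 were higher as well (median 2.49) and Lgr5 was lower (-1.13). EBF cofactors were higher in 2 of 2 cases in endothelial nuclei and 1 of 2 in mural nuclei, thalamic factors in 2 of 4 in each, and genes of the Sim1 and Otp programme in 2 of 7 and 1 of 7. Of 7 Cajal-Retzius genes 1 was higher and 1 lower in each, and of 5 LIM-homeodomain partners 1 was lower in each and 1 higher in mural nuclei.

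Ebf2 had a second site in fibroblasts of the meninges and vessel sheaths, at 16.5, 30.3 and 43.8 CPM against 4.12, 5.72 and 9.35 CPM in neurons. The libraries did not overlap, and the difference was 5.51-fold (log2 2.46, 236 UMIs in fibroblasts). A UMI was seen in 9.22% of fibroblast nuclei, or 6.09% after thinning. Ebf1, Ebf2, Lef1 and Emx2 were called higher in fibroblasts than in neurons and 0 lower (19.8% and 11.3% of all genes tested). In the clustering, Ebf2 was at 38.9 CPM in cluster 17 (1650 nuclei), led by fibroblast genes such as Slc6a13 and Aldh1a2. The thalamic list also had 4 of 4 genes higher in fibroblasts (Zic4 4.83 and Zic1 3.79, both known in meninges). EBF cofactors were higher in 2 of 2 cases, pallial patterning factors in 2 of 2 and Wnt genes in 5 of 6 with 1 lower, and of 7 Cajal-Retzius genes 2 were higher and 2 lower, and of 5 LIM-homeodomain partners 1 was higher and 1 lower.
Ebf3 had a second site in microglia, at 14.9, 17.8 and 24.9 CPM against 0.824, 2.03 and 6.15 CPM in the oligodendrocyte lineage. No library overlapped, and the difference was 7.92-fold (log2 2.98, interval 2.56 to 3.43, 233 UMIs against 57). The UMIs came from 6.56% of microglia, or 4.11% after thinning, although microglia were the shallower nuclei (2712 against 4130 UMIs). Ebf3 was the 1 gene of the 9 called higher and 0 were lower (9.67% and 5.71% of all genes tested), and 0 genes of the 8 gene lists were higher there, with 2 of 6 Wnt genes lower. Ebf2 was above in 4 of 6 libraries, with 0.729 to 22.4 CPM in microglia and library 6 far above the rest, where 1 nucleus held 28 of the 29 UMIs. Cluster 10 (2635 microglia nuclei) held 191 UMIs of Ebf3 at 28.3 CPM, with 7 of 7 microglia and 5 of 17 hypothalamic markers raised, and the part of the latter in the Ebf3 level was not tested. This comparison and those of astrocytes with neurons and of the 2 subcortical gates with each other were chosen after the data had been seen.

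Emx2 was highest in astrocytes. It was at 12.5, 18.7 and 24.2 CPM in astrocytes and at 1.10, 1.34 and 1.69 CPM in neurons, without overlap, a 13.1-fold difference (log2 3.71, 472 UMIs against 355). A UMI was found in 7.45% of astrocytes and 1.34% of neurons, or 3.92% and 0.328% after thinning, although neurons were deeper. Emx2os followed at 74.2, 97.0 and 107 CPM against 5.29, 7.27 and 8.72 CPM (log2 3.70).
Of the 9 genes, Emx2 was called higher in astrocytes, and Ebf2 (log2 -1.58), Ebf3 (-1.50) and Sim1 (-2.28) lower (17.5% of all genes tested were called higher and 11.2% lower). Pallial patterning factors were higher in 2 of 2 cases (median log2 3.61), EBF cofactors in 2 of 2, thalamic factors in 3 of 4, Wnt genes in 4 of 6 with 1 lower, and genes of the Sim1 and Otp programme in 2 of 7. LIM-homeodomain partners were lower in 3 of 5 cases and Cajal-Retzius genes in 2 of 7.
Emx2 also differed between 2 sets of astrocytes. In 1427 nuclei with telencephalic markers, Lhx2 and Mfge8 among them, it was at 12.3, 23.7 and 34.4 CPM, and in 1038 nuclei with Agt or Itih3, genes of astrocytes outside the telencephalon, at 5.43, 11.7 and 14.8 CPM. The 2 sets of library values overlapped, but within each library the first was higher, from log2 0.03 to 2.66. Over all nuclei the ratio was 2.03-fold (log2 1.02, interval 0.564 to 1.496, 162 UMIs against 53), and fell to 0.72 without library 2 and to 0.90 without library 6, under the 2-fold limit. Emx2 was the 1 of 9 genes called higher and 0 were lower (0.349% and 0.474% of all genes tested), and Emx2os (log2 0.79) was higher in 6 of 6 libraries but under 2-fold. None of the 8 gene lists had a gene called in either direction.
The clusters gave the same order. Cluster 1 (6260 astrocyte nuclei) held 571 UMIs of Emx2 at 24.6 CPM, and cluster 13 (2029 nuclei, led by Etnppl and Itih3) 41 UMIs at 5.32 CPM. Of the telencephalic astrocyte markers, 2 of 3 were raised in cluster 1 and 1 of 3 in cluster 13. Agt and Itih3 were raised in each, so the marker lists separate these clusters only in part. Lower gates included fibroblasts (6.78 CPM), endothelial nuclei (5.17 CPM), microglia (3.12 CPM) and the oligodendrocyte lineage (3.06 CPM), at median depths of 2712 to 4130 UMIs. Each gate below astrocytes overlapped the next, but the ends of this series did not all meet. The fibroblast interval began at 4.996 CPM, above those of microglia (up to 4.23 CPM) and the oligodendrocyte lineage (up to 3.82 CPM). The levels of these last 2 gates are not read as expression. Emx2 was called higher than in neurons in fibroblasts (log2 2.27) and endothelial nuclei (1.88). The part of free RNA in these levels was not tested.

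**Figure D5:**
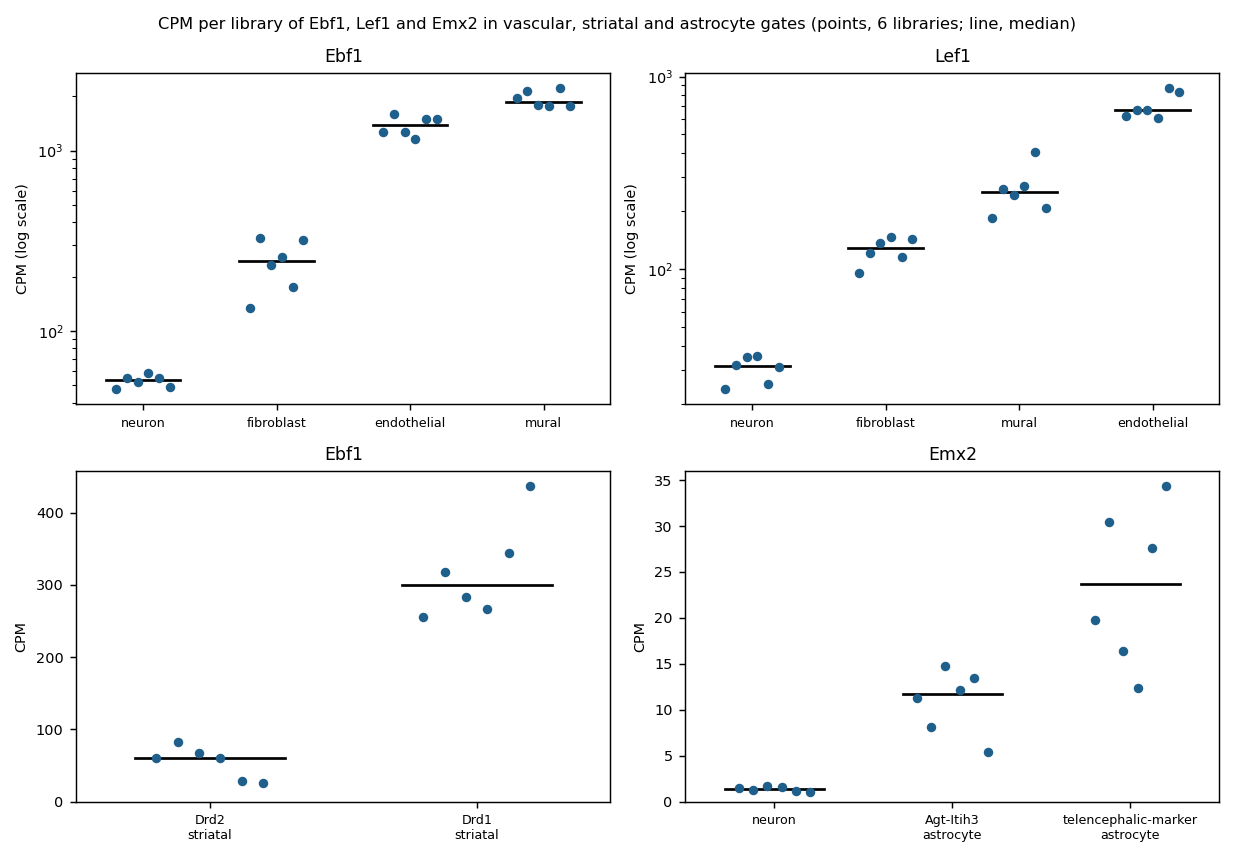
CPM in each of the 6 libraries (points) with their median (line) for Ebf1 and Lef1 in neuron, fibroblast, mural and endothelial nuclei (upper panels, log scale), for Ebf1 in Drd2 and Drd1 striatal nuclei (lower left) and for Emx2 in neurons and both astrocyte sets (lower right). Ebf1 is highest in mural nuclei (1761 to 2215 CPM) and Lef1 in endothelial nuclei (608 to 869 CPM), and the Drd1 points for Ebf1 (256 to 437 CPM) lie above all Drd2 points.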

How the data were processed

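Nuclei of 6 forebrains, 3 WT and 3 Npc1-/-, were measured by droplet sequencing (10x, 3′ chemistry v2). The authors deposited UMI counts, not normalized, in 1 joined matrix. Cell Ranger 6.0.0 is named in the file header and Cell Ranger 2.1.1 with mm10 in the submitters' processing notes, while the study's methods describe STARsolo on GRCm38 with removal of empty droplets and doublets. No source used here says how these relate. No further doublet removal was applied, and barcodes with at least 10% mitochondrial counts were left out.

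Counts were summed per gate and library and scaled to CPM. Sums carry exact Poisson intervals, shares exact Clopper-Pearson intervals and ratios exact binomial intervals. Gene lists left out the 9 genes and genes used for gating. Clusters (scanpy 1.11.5, leidenalg 0.10.2, Python 3.11.15) used 3000 variable genes, 30 components, 20 neighbours and resolution 1, and sub-clusters 2000, 20 and 15. Shares were also computed after thinning to 2000 UMIs. The members and lists were chosen with earlier results of these data known. Named genes were the 9 members, Ebf4, listed pathway genes, the 4 genes of most similar pattern (at least 1000 UMIs, clusters of at least 100 nuclei) and the 6 leading genes per named cluster (at least 100 UMIs). The summing and ratio code was tested on simulated data. Alternatives were TMM scaling (edgeR 4.0.16, R 4.3.3), deeper nuclei, doublet removal, stricter gates, cluster-based gates, other resolutions and leaving out each library.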

Additional observations from a re-analysis of the deposited data

How the results depend on the processing

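Of 414 alternative values for 43 results, 328 stayed within the counting interval and 86 moved beyond it. For counts of called genes, a set fold took the place of the interval. A reversal was scored for the log2 ratios only, and 0 reversed. The 414 include the values with 1 library left out, which share most counts with the main result. Among the others, stricter gates moved 18 values and left 9, and cluster gates moved 10 and left 6. TMM scaling moved 12 and left 15, doublet removal moved 4 and left 26, and deeper nuclei moved 0 and left 27. TMM scaling lowered several log2 ratios, giving 4.65 for Ebf1 in mural nuclei over neurons, 3.98 for Lef1 in endothelial nuclei over neurons, 1.88 for Ebf2 in fibroblasts over neurons, 3.93, 4.89 and 4.10 for Ebf2, Ebf3 and Sim1 in the other subcortical Slc17a6 over pallial nuclei, 5.87 for Lef1 in thalamic over pallial nuclei and 3.36 for Emx2 in astrocytes over neurons. Stricter gates gave, for the same ratios, 5.02, 4.26, 2.14, 5.84, 6.19, 5.25, 6.39 and 4.04. They also gave 3.26 for Ebf1 in Drd1 over Drd2 nuclei, 6.64 for Sim1 in the other subcortical Slc17a6 over thalamic nuclei and 0.95 for Ebf1 in subcortical GABA nuclei over interneurons. Doublet removal gave 5.30 for Ebf1 in mural and 4.57 for Lef1 in endothelial nuclei. Gates made of whole clusters gave 5.02 and 4.32 for these, 2.47 for Ebf3 in microglia over the oligodendrocyte lineage, 6.33 and 4.002 for Lef1 and Lhx9 in thalamic over pallial nuclei, 3.40 for Emx2 in astrocytes over neurons and 2.15 for Emx2 between the astrocyte sets. They could not be made for the other subcortical Slc17a6, subcortical GABA, Drd1 and Drd2 nuclei. The cause of these moves was not tested.

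Thinning lowered the shares of nuclei with a UMI to 4.43% (Ebf2, other subcortical Slc17a6), 44.6% (Lef1, thalamic) and 3.92% (Emx2, astrocytes), and requiring 2 UMIs lowered them to 6.05%, 63.4% and 0.818%, and that of Ebf1 in mural nuclei to 81.0%. With 2 UMIs of each gene, the co-detection ratios in neurons rose to 33.2 (Ebf2 with Ebf3), 9.96 (Lhx9 with Lef1) and 5.47 (Ebf1 with Ebf3). With stricter gates, 5 rather than 6 of the 9 genes were called higher in thalamic nuclei (without Ebf2) and 5 in the other subcortical Slc17a6 nuclei (without Lef1), and with cluster gates 4 in thalamic nuclei (without Ebf2 and Ebf3).

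At Leiden resolutions of 0.5 and 2.0, the level in the highest cluster became 2069 and 2227 CPM for Ebf1 (1950 at resolution 1), 529 and 722 CPM for Lef1 (575) and 19.7 and 29.3 CPM for Emx2 (24.6), and 20.2 CPM at 2.0 for Sim1 (18.8), while the other 11 of 18 such levels stayed within the counting interval.

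Leaving out 1 library kept both counts at 6 and gave log2 ratios of 5.14 to 5.24 for Ebf1 in mural nuclei, 4.38 to 4.54 for Lef1 in endothelial nuclei (4.50 without library 3) and 2.27 to 2.67 for Ebf2 in fibroblasts over neurons, 2.26 to 2.66 for Ebf1 in Drd1 over Drd2 nuclei, 4.03 to 4.52 for Ebf2 and 5.11 to 5.61 for Ebf3 in the other subcortical Slc17a6 over pallial nuclei, and 5.88 to 6.36 for Lef1 in thalamic over pallial nuclei (5.92 without library 5). The co-detection ratio of Lhx9 with Lef1 ran from 3.88 to 4.70, and the log2 ratio of Ebf1 in subcortical GABA nuclei over interneurons from 0.92, without library 2, to 1.81. No paired analysis was possible because the replicate numbers in the labels cannot be tied to barcodes. Ratios between gates were taken within each library as well as over all nuclei. Depth limits what can be said of Otp and Gbx2, and of any level near the free RNA in the droplets.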

Other observations

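Further clusters held some of the 9 genes, each below the level in its highest cluster. Cluster 26 (585 nuclei, led by Slc47a1 and Slc47a2, with 5 of 7 fibroblast markers raised) had 12.7 CPM of Ebf2 and 9.77 CPM of Sim1. Cluster 20 (1349 nuclei, led by Dsp and Il16) had 11.98 CPM of Lhx9. Of its nuclei in a narrower gate, 92.6% were pallial excitatory, a gate with 1.57 CPM of Lhx9 as a whole. Cluster 31 (395 nuclei, with 5 of 5 choroid plexus markers raised) had 271 CPM of Lef1. A second cluster with 7 of 7 microglia markers raised, cluster 14 (1934 nuclei), held 134 UMIs of Ebf3 at 8.27 CPM, below the level of cluster 10. Its nuclei had a median of 6079 UMIs, with summed neuron markers at 5989 CPM, against 2289 UMIs and 3881 CPM in cluster 10. Its median doublet score was higher as well (0.108 against 0.00584), and the part of mixed droplets in its Ebf3 level was not tested.

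After the genes already given, the most similar patterns across the 35 clusters were those of Tbc1d4 (Pearson's r 0.86), Ankrd50 (0.84) and Utrn (0.83) for Ebf1, of Vav3 (0.78), Prox1os (0.72) and Shox2 (0.70) for Lhx9, of Amotl1 (0.87), 4921524J17Rik (0.87) and Fzd6 (0.86), a Wnt receptor, for Lef1, and of Fam107a (0.90), Arhgef26 (0.90) and Emx2os (0.89) for Emx2. For the sparse genes they were Nudt16l1 (0.67), Slc25a1 (0.66) and Pmch (0.65), a hypothalamic peptide precursor, for Otp, and Arl14ep (0.77), Gm14295 (0.77) and Kxd1 (0.76) for Gbx2.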
